A study of Mus musculus with 30 samples.

Results

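The nuclear-encoded genes of oxidative phosphorylation were examined in RNA of blood platelets and of peripheral blood mononuclear cells (PBMC) from mice with and without injected melanoma cells. Members were taken by symbol, under a rule chosen with earlier results of these data known. They are the protein-coding genes whose mouse symbol begins with Ndufa, Ndufb, Ndufc, Ndufs, Ndufv, Uqcr, Atp5, Cox4, Cox5, Cox6, Cox7 or Cox8, or is Sdha, Sdhb, Sdhc, Sdhd or Cyc1. They came to 95 of the 54532 genes in each count table. Complex I accounted for 38 of them, complex II for 4, complex III for 9, and complexes IV and V for 18 each. The remaining 8 were Ndufaf1 to Ndufaf8, assembly factors of complex I that the symbol rule also takes in. Atp5o stands for 2 of the 95 identifiers, and 1 of these, which overlaps Donson, had no count in any library. A further 13 entries with matching symbols were left out because they are annotated as pseudogenes or, for Ndufb1-ps, as a non-coding transcript.

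All mice were C57BL/6 females aged 6 to 8 weeks, injected under the skin of the right flank with 100 μl of HBSS, a balanced salt solution. The C group received the buffer alone, the S group received 2000 B16F10 cells and the O group received 100000 B16F10 cells, a mouse melanoma line. Blood was drawn behind the eye on day 14, when autopsy of the S group found no visible tumor and the O group carried large tumors. Each tissue had 5 libraries per group, 30 in all, and each library was a pool of mice. By the labels, platelet pools held 5 or 10 mice in the C group, 10 in the S group and 3 to 5 in the O group, and PBMC pools held 5, then 4 or 5, then 3 to 5. The study's methods give slightly different numbers of mice for some S group platelet pools. PBMC were prepared, by the study's methods, from the blood that remained once the platelets had been taken off, so both tissues share mice, and O group pools of the same number hold equally many mice in both. Which mice entered which pool is not given in the sources used here. P values therefore measure the spread between pools. By the study's methods, S group pools can include mice that would never form a tumor.

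Oxidative phosphorylation runs in the inner mitochondrial membrane. Complex I (NADH dehydrogenase) and complex II (succinate dehydrogenase) pass electrons to ubiquinone, complex III passes them to cytochrome c, and complex IV (cytochrome c oxidase) reduces oxygen, while complex V (ATP synthase) uses the proton gradient to make ATP. Most subunits are encoded in the nucleus and imported, and the rest are encoded in mitochondrial DNA. Platelets have no nucleus but hold mitochondria and RNA from the megakaryocyte, immature red cells still hold mitochondria and RNA, and mature red cells hold no mitochondria.

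Total counts per library ran from 12259036 to 25360080 in platelets and from 13390983 to 15973449 in PBMC. Between the tissues, on the TMM scale described with the tissue comparison, 12 of 12 platelet markers tested were higher in platelets, with a median log2 fold change of 4.28, and 12 of 12 erythroid markers were higher there too, with a median of 2.02. Hemoglobin genes took 4.02% to 39.0% of the counts of a platelet library and 3.23% to 24.5% of those of a PBMC library. The T cell, B cell, NK cell and monocyte markers were detected in every platelet library, so the platelet values include RNA of other blood cells. In bulk RNA, fewer cells of a type and less RNA per cell cannot be told apart.

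Pools 1 and 4 of the O group held the highest shares of member counts in both tissues, by a wide margin in platelets and a narrow one in PBMC. The members together took 0.887% of all counts in platelet pool 1 and 0.789% in platelet pool 4 of the O group, against 0.394% to 0.5998% in the C group. In PBMC both pools reached 0.592%, against 0.455% to 0.536% in the C group and 0.563% in S group pool 1, the next highest library. Both are pools of 3 mice, the smallest in the study. The comparisons with the O group are given with and without them, and leaving them out was chosen after seeing the data.

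Promoters of 6 members are shown, those of the genes around which the comparisons below turn. Each is the 250 bases before the RefSeq start on GRCm38.p6, written 5′ to 3′ on the gene's strand, with capitals where a searched motif matches on either strand. Cox5a lies at chr9:57520982-57521231 (plus strand), Atp5b at chr10:128083057-128083306 (plus strand), Atp5k at chr5:108434400-108434649 (minus strand), Cox7c at chr13:86046796-86047045 (minus strand), Cox6b2 at chr7:4753095-4753344 (minus strand) and Sdha at chr13:74350241-74350490 (minus strand). Cox5a and Cox6b2 are shown for the difference between the tissues, Atp5k and Cox7c for the S group, Atp5b for O group pools 1 and 4, and Sdha as a member that passed in no comparison on the TMM scale.
Cox5a: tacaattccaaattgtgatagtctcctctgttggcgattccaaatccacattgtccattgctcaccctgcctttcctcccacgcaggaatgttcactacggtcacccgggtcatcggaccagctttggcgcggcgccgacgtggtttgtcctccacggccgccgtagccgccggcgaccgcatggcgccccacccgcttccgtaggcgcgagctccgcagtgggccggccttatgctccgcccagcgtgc
Cox6b2: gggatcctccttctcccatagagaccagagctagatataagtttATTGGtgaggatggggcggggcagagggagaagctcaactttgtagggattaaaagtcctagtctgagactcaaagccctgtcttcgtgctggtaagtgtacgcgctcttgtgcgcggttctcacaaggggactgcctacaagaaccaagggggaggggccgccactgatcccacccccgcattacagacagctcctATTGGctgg
Atp5k: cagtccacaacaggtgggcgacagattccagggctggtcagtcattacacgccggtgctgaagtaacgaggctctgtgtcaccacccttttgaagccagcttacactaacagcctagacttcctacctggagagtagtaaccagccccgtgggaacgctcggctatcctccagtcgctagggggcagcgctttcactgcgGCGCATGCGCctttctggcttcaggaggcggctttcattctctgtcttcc
Cox7c: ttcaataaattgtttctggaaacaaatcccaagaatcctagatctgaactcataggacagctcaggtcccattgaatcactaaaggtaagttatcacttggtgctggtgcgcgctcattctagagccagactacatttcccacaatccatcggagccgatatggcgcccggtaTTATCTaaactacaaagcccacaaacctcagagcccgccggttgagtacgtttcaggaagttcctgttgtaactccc
Atp5b: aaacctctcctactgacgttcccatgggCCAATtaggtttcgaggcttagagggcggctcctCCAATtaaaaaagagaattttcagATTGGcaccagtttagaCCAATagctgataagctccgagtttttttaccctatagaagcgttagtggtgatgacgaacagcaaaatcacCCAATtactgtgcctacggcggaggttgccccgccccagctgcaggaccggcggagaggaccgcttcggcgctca
Sdha: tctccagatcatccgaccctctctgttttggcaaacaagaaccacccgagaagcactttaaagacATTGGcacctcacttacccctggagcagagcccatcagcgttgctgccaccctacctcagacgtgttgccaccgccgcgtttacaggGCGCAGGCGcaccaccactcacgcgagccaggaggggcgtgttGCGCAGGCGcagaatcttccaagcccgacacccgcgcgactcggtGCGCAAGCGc

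Motifs of 5 factors were searched on both strands. The motif of NRF1, a regulator of mitochondrial genes, was GCGCANGCG, where N is any base. ETS factors were represented by the letters CCGGAAG. The motif of YY1 was AAGATGGCG, and that of GATA factors, which act in blood lineages, was AGATAA. The CCAAT box was searched by its own 5 letters, and no motif's letters contain another's. The Sdha promoter held 3 NRF1 matches and 1 CCAAT box, and that of Atp5k held 2 NRF1 matches that overlap each other. Atp5b held 5 CCAAT boxes and Cox6b2 held 2, Cox7c held 1 GATA match, and Cox5a held no match. Over the 300-base windows of RefSeq, which add 50 bases after the start, 75 of the 95 members could be matched by symbol, with 80 windows. The Atp5o window is counted for each of its identifiers. NRF1 letters stood in 30% of the member windows and in 6.25% of all 32851 windows. The ETS letters stood in 22.5% against 8.86%, YY1 in 10% against 1.4%, CCAAT in 42.5% against 37.4% and GATA in 7.5% against 11.2%. The letters of NRF1 and YY1 had been shortened after matches of longer forms were seen, so their shares are descriptive and not a test. A match describes letters in a window and does not show that a factor binds there.

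In the C group, levels were compared between genes as CPM (counts scaled to a common library size) per kilobase of exon, with both tissues scaled together. Cox8a, a small structural subunit of complex IV, was the highest member in both tissues, at 566 ± 170 CPM per kb in platelets and 125 ± 11.3 in PBMC (SD, n = 5). In platelets the highest subunit of each other complex was Ndufa1 (287 ± 94.0), Sdhd (34.9 ± 7.30), Uqcr11 (142 ± 45.2) and Atp5e (211 ± 62.6). In PBMC these places went to Ndufb11 (43.7 ± 1.80), Sdhd (24.2 ± 2.42), Uqcrh (47.1 ± 4.18) and Atp5a1 (73.0 ± 4.21). The ranges of mean ± SD of some neighbours overlap, such as those of Uqcr11 and Uqcrh (112 ± 17.2) in platelets. Those of Cox8a and Cox6a1, given below, overlap in both tissues. Exon length took in every annotated exon of a gene, 619 bases for Cox8a and 4237 for Atp5b, so the order depends in part on annotation.

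Complex IV has paralogous subunits that are known to differ between tissues, and in both blood fractions 1 form of each pair dominated. Cox4i1, the common form of the subunit, stood at 173 ± 28.7 CPM per kb in platelets and Cox4i2 at 0.34 ± 0.27 (SD, n = 5). Cox6a1, the liver form, stood at 505 ± 107 in platelets and 113 ± 6.79 in PBMC, against 2.49 ± 1.23 and 0.73 ± 0.41 for Cox6a2, the heart and muscle form. Cox7a2 stood at 94.9 ± 18.7 in platelets and Cox7a1, its muscle form, at 1.33 ± 0.24. Cox8b and Cox8c were at or under 0.39 CPM per kb in both tissues, Cox7b2 had no count in the C group of either, and Ndufa4l2, a paralog of Ndufa4, stood at 0.62 ± 0.47 in platelets and had no count in PBMC. Cox6b1 and Cox6b2, the second known as the testis form of subunit 6b, were the least unequal pair in platelets. Cox6b2 stood at 68.6 ± 30.4 CPM per kb in platelets beside 324 ± 108 for Cox6b1, and at 3.09 ± 0.75 beside 56.7 ± 7.30 in PBMC.

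Most members were higher in platelets than in PBMC when libraries were scaled by TMM, which sets the bulk of genes level, and fewer were when libraries were scaled by their totals. Summed, the members took 0.394% to 0.5998% of all counts in C group platelets and 0.455% to 0.536% in C group PBMC, which overlapped. The TMM factors were 0.44 to 0.77 in C group platelets and 1.65 to 1.77 in C group PBMC. On the TMM scale, of 89 members that passed the filter on low counts, 76 were higher in platelets and 4 lower at an adjusted P under 0.05 (edgeR's quasi-likelihood test with Benjamini-Hochberg adjustment over all genes, 15 libraries per tissue). The same test called 36% of all genes higher and 45.2% lower. The median log2 fold change was 0.93 for the members and -0.15 for all genes, and without the hemoglobin genes these became 1.08 and 0.00. Scaled by library totals, chosen after seeing the data, 19 members were higher and 43 lower, beside 13.6% and 77.7% of all genes, with medians of -0.32 for the members and -1.37 for all genes. The members' median thus lay above that of all genes by 1.08 with TMM and by 1.05 with totals, while the sign of the difference itself turned. The fit treated the libraries as independent, and with the pool as a block 76 were higher and 3 lower, beside 35.4% and 46% of all genes. Only C group libraries gave 72 higher and 1 lower, beside 31.3% and 39.8%, and leaving out O group pools 1 and 4 gave 76 and 5, beside 35.7% and 46.5% of all genes. The erythroid markers were higher in platelets as well, and their part in the result was not tested.

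The size of the tissue difference, given here on the TMM scale, varied by complex. Complex IV had the highest median, a log2 fold change of 1.99 with 13 of 14 members higher. Complex I followed at 1.00, with 33 of 37 higher and Ndufs1, its largest core subunit, lower at -0.25. Complex V stood at 0.90 with 16 of 17 higher, complex III at 0.76 with 7 of 9 higher, and complex II at 0.53 with 3 of 4 higher. The assembly factors Ndufaf1 to Ndufaf8 had a median of 0.46, with 4 higher and Ndufaf7 and Ndufaf6 lower, at -0.64 and -0.44. Scaled by totals, complex IV alone of the nuclear groups kept a median above 0, at 0.69 with 8 higher and 3 lower, and complex II stood at -0.69 with 4 of 4 lower. For comparison, with TMM, 12 of 12 subunits encoded in mitochondrial DNA were higher in platelets, with a median of 2.13, while 38 assembly factors outside the symbol rule had 16 higher and 10 lower and a median of 0.14.

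**Figure D1:**
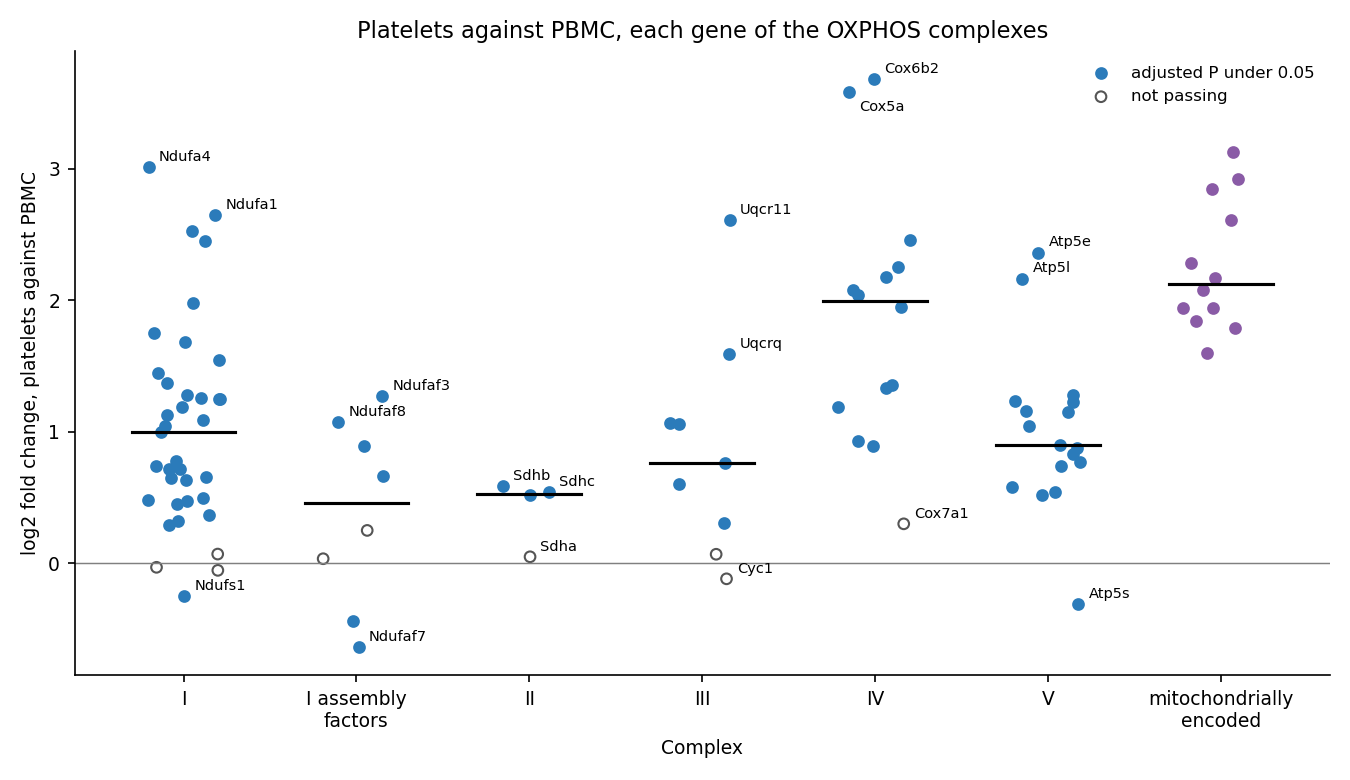
Each point is 1 gene, placed by its log2 fold change of platelets against PBMC with TMM scaling over all groups (15 libraries each) and grouped by complex, with bars at the medians and the subunits encoded in mitochondrial DNA beside them. Complex IV has the highest median of the nuclear groups (1.99) and the assembly factors the lowest (0.46).

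For 7 of 89 members no platelet library overlapped any PBMC library on the TMM scale, all 7 higher in platelets, beside 11.9% of all genes without overlap that were higher and 13.4% that were lower. Cox5a, a nuclear subunit of complex IV, ran from 120.5 through a median of 306 to 722 CPM in platelets and from 20.1 through 26.6 to 42.0 in PBMC. The lowest platelet library thus lay above the highest PBMC library, and the log2 fold change was 3.58 ± 0.20 (SE), 12.0-fold (adjusted P = 6.65e-16, edgeR's quasi-likelihood test). Ndufa4, first described in complex I and now placed with complex IV, ran from 104 through 236 to 492.5 CPM in platelets and from 25.1 through 29.3 to 48.2 in PBMC, a log2 fold change of 3.02 ± 0.18. Ndufs4, an accessory subunit of the matrix arm of complex I, ran from 50.2 through 100.2 to 146 CPM against 15.1, 17.3 and 21.9, a log2 fold change of 2.45 ± 0.13. These 3 were 5.47-fold to 12.0-fold higher in platelets with TMM, and with library totals their log2 fold changes were 2.29, 1.72 and 1.17. Atp5e, the epsilon subunit of the ATP synthase head, had a log2 fold change of 2.36 ± 0.14, and Ndufb3, Ndufaf3 and the supercomplex factor Cox7a2l had 1.28 ± 0.09, 1.27 ± 0.13 and 1.19 ± 0.09. With totals Atp5e stood at 1.08, Ndufb3 at 0.0235, Ndufaf3 at 0.0321 and Cox7a2l at -0.0647, and the last 3 did not pass. The largest log2 fold change of a member with TMM was that of Cox6b2, 3.68 ± 0.51 (12.8-fold), but its tissues overlapped.

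Some members were near equal in both tissues on the TMM scale. Sdha, the flavoprotein of succinate dehydrogenase, ran from 88.7 through 100.2 to 153 CPM in platelets and from 92.0 through 98.4 to 109 in PBMC, and its log2 fold change of 0.05 ± 0.06 did not pass (adjusted P = 0.475, edgeR's quasi-likelihood test). Its partners Sdhb, Sdhc and Sdhd were higher in platelets by 0.59 ± 0.09, 0.54 ± 0.07 and 0.52 ± 0.07. Cyc1, the cytochrome c1 of complex III, ran from 30.3 through 40.8 to 53.4 CPM in platelets and from 38.5 through 45.0 to 54.5 in PBMC, and its difference was -0.12 ± 0.08 on the log2 scale (adjusted P = 0.153, edgeR's quasi-likelihood test). With library totals both were lower in platelets, with log2 fold changes of -1.19 for Sdha and -1.36 for Cyc1. The other members that did not pass were Ndufaf4, Ndufaf5, Ndufs3, Ndufv1, Ndufb2, Uqcrc1 and Cox7a1.

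The S group was compared with the C group to ask what blood RNA shows before a tumor can be seen. In platelets 7 of 88 members tested were lower in the S group and none was higher at an unadjusted P under 0.05 (edgeR's quasi-likelihood test). The study called genes at P values under 0.05 and does not state whether these were the adjusted ones. Over all 13268 genes tested, 2.13% were called lower and 4.29% higher. The members had a median log2 fold change of -0.22, with 82 of 88 below 0, against -0.01 for all genes. After adjustment no member passed, beside 0.00754% of all genes called higher and 0% lower, and the smallest adjusted P of a member was 0.746 (edgeR's quasi-likelihood test with Benjamini-Hochberg adjustment). With DESeq2 no member passed after adjustment either. Scaled by library totals, no member was lower or higher at the unadjusted threshold, beside 0.241% and 10.3% of all genes, and the medians were -0.04 for the members and 0.20 for all genes.

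The genes lower in S group platelets were small accessory subunits of complexes I, IV and V. Atp5mpl, a small membrane subunit of ATP synthase, stood at 32.2, 22.3, 33.5, 26.1 and 29.5 CPM in C group pools 1 to 5 and at 19.8, 21.8, 23.9, 16.2 and 17.4 CPM in S group pools 1 to 5. The highest S group pool overlapped the lowest C group pool, and the log2 fold change was -0.55 ± 0.16 (SE). Its unadjusted P was 0.00313 (edgeR's quasi-likelihood test). Atp5k, the e subunit that helps ATP synthase form dimers, stood at 16.3, 9.27, 14.0, 15.9 and 13.9 CPM in the C group and at 9.60, 10.5, 10.7, 7.82 and 7.02 CPM in the S group. C group pool 2 alone lay among the S group pools, and the log2 fold change was -0.62 ± 0.19. Cox7b, a complex IV subunit, stood at 71.1, 39.7, 57.5, 47.1 and 48.8 CPM in the C group and at 34.8, 40.9, 40.8, 30.7 and 31.1 CPM in the S group. Again C group pool 2 alone lay within the S group range, and the log2 fold change was -0.58 ± 0.17. Cox7c, a small membrane subunit of complex IV, stood at 52.5, 38.4, 51.0, 41.7 and 44.1 CPM in the C group and at 38.1, 45.0, 38.6, 30.2 and 25.6 CPM in the S group. The ranges overlapped, with S group pools 2 and 3 inside the C group range, and the log2 fold change was -0.37 ± 0.17. The other 3 were Cox6c (-0.49), Ndufc2 (-0.60) and Ndufa6 (-0.35).

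Atp5mpl, Cox7b and Atp5k passed the threshold in all 10 fits that left out 1 library, Cox6c in 6, Ndufc2 in 5, Ndufa6 in 4 and Cox7c in 3. Ndufc2 stood at -0.27 without C group pool 3. The count of 7 members became 12 without C group pool 5, 4 without S group pool 1, 15 without S group pool 3, 3 without S group pool 4 and 4 without S group pool 5, and fell to 1 when all 3 groups shared a fit. Of all genes, the fits without 1 library called 4.14% to 11.4% in either direction, and 2.13% to 3.93% in the same comparison of PBMC. For the shared fit no share of all genes is given, so its count describes the members alone. Beside these genes, 12 of 12 erythroid markers had a log2 fold change below 0 in the same comparison, with a median of -0.57 and none past the threshold, and 4 of 10 T cell markers and 4 of 8 B cell markers were higher. The part of either in the result was not tested.

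In PBMC 5 of 88 members were lower in the S group and none was higher, where 1.41% of all 15139 genes were called lower and 1.23% higher (edgeR's quasi-likelihood test, unadjusted P under 0.05). The median log2 fold change was -0.04, with 30 of 88 members above 0, against 0.01 for all genes. After adjustment no member passed, beside 0.0132% of all genes called higher and 0.0198% lower, and the smallest adjusted P of a member was 0.900 (edgeR's quasi-likelihood test with Benjamini-Hochberg adjustment). Atp5mpl stood at 38.4, 40.2, 34.9, 37.4 and 37.5 CPM in the C group and at 35.5, 30.9, 28.5, 27.8 and 31.4 CPM in the S group. S group pool 1 alone reached the C group range, and the log2 fold change was -0.28 ± 0.08. Cox7c stood at 64.4, 66.6, 53.0, 62.9 and 62.8 CPM in the C group and at 58.8, 46.9, 45.9, 42.3 and 52.6 CPM in the S group. Only S group pool 1 and C group pool 3 crossed over, and the log2 fold change was -0.31 ± 0.09. Atp5k stood at 18.1, 16.4, 15.4, 19.3 and 16.5 CPM in the C group and at 16.8, 12.4, 14.3, 12.5 and 15.3 CPM in the S group. S group pool 1 alone lay inside the C group range, and the log2 fold change was -0.25 ± 0.10. Ndufa1 (-0.29) and Ndufa3 (-0.19), accessory subunits of complex I, were the others. With the pool number as a block these 5 were lower as well, at -0.28, -0.32, -0.26, -0.30 and -0.19 in the order given, and Atp5g1 (0.21), a subunit of the ATP synthase ring, and Ndufb5 (0.15) were higher, beside 1.8% and 2.5% of all genes. Scaled by library totals these 5 were lower as well and none was higher, beside 1.71% and 0.832% of all genes.

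Atp5mpl, Atp5k and Cox7c were thus lower in the S group in both tissues, 3 of the 7 platelet genes and 3 of the 5 PBMC genes. Of all 12408 genes tested in both tissues 9 were lower in both (0.0725%), out of 253 lower in platelets and 156 lower in PBMC. With library totals the platelet values of these 3 genes, at -0.37, -0.42 and -0.19, did not pass. Platelet and PBMC libraries carry separate RNA preparations from shared blood, so the tissues are not independent sets of mice. In PBMC, Atp5mpl, Cox7c and Ndufa1 passed in all 10 fits without 1 library, Atp5k in 5 and Ndufa3 in 3. The PBMC count of 5 became 10 without C group pool 3, 3 without C group pool 4, 17 without S group pool 1, and 3 without S group pool 2 or S group pool 3. With all 3 groups in 1 fit it was 0, a count given without a share of all genes. Cox7c shares 19.6% of its 75-base exon windows with other annotated genes, so reads of near-identical copies cannot be told apart there.

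**Figure D2:**
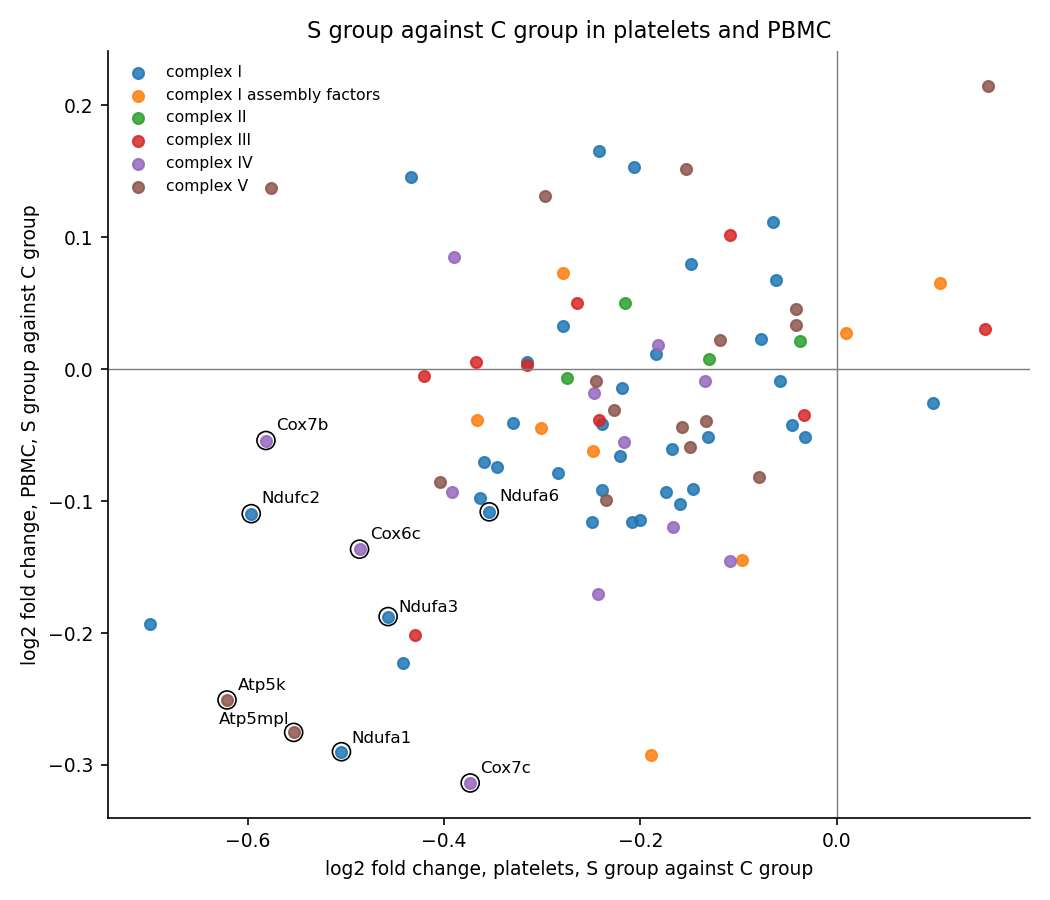
Each point is 1 member, placed by its log2 fold change of the S group against the C group in platelets (horizontal axis) and in PBMC (vertical axis), with a ring where the unadjusted P was under 0.05 in either tissue. Most points lie left of 0, and Atp5mpl, Atp5k and Cox7c lie below 0 on both axes.

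Succinate dehydrogenase and cytochrome c1 did not pass in either tissue. In platelets Sdhc had a log2 fold change of -0.27 ± 0.16, Sdhb -0.22 ± 0.20, Sdhd -0.13 ± 0.17, Sdha -0.04 ± 0.14 and Cyc1 0.15 ± 0.17. In PBMC all 5 lay between -0.01 and 0.05, with SEs of 0.06 to 0.09.

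The O group was compared with both other groups to ask what a large tumor adds. In platelets 36 of 88 members were lower in the S group than in the O group and none was higher, where 6.67% of 13306 genes were called lower and 7.23% higher (edgeR's quasi-likelihood test, unadjusted P under 0.05). Complex I had 21 of 37 called, complex IV 7 of 13, complex III 4 of 9 and complex V 4 of 17, and complex II and the assembly factors had none. In PBMC 30 of 88 were lower in the S group and none was higher, beside 7.8% of 14686 genes called lower and 4.43% higher, with 10 of 13 from complex IV, 9 of 37 from complex I, 6 of 17 from complex V and 5 of 9 from complex III. The median log2 fold changes were -0.61 in platelets and -0.35 in PBMC, and those of all genes were -0.01 and -0.000848. None passed after adjustment, and 0% of all genes did, where the smallest adjusted P of a member was 0.260 in platelets and 0.296 in PBMC (edgeR's quasi-likelihood test with Benjamini-Hochberg adjustment).

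Against the C group, in comparisons that use the same O group libraries, 5 of 88 members were higher in O group platelets and none was lower, where 2.61% of 13270 genes were called higher and 2.17% lower (edgeR's quasi-likelihood test, unadjusted P under 0.05). These were Ndufv3 (log2 fold change 1.08), Cox6b2 (1.93), Ndufb8 (0.95), Uqcrb (1.14) and Uqcrq (1.19). They stood, when O group pools 1 and 4 were left out, at 0.07, -0.18, 0.11, 0.05 and -0.19, and none passed. In O group PBMC 22 of 88 were higher and none was lower, where 7.56% of 14726 genes were called higher and 4.39% lower, and the 22 held 7 members of complex I, 6 of complex IV, 5 of complex III and 4 of complex V. Median log2 fold changes were 0.40 in platelets and 0.27 in PBMC. After adjustment 0% of all genes passed in either tissue, and the smallest adjusted P of a member was 0.910 and 0.337 (edgeR's quasi-likelihood test with Benjamini-Hochberg adjustment). With DESeq2 and its adjustment, 1 member, Cox6b2, was higher in O group PBMC than in the C group, beside 1.4% of all genes called higher and 0.224% lower. Cox6b2, Cox7b and Atp5k were lower in S group PBMC than in the O group, beside 1.27% called lower and 0.197% higher. In PBMC the direction of the members as a set turned with the scale. Scaled by library totals, 4 members were higher and 19 lower in the O group than in the C group, beside 2.22% and 27.7% of all genes, with medians of -0.18 for the members and -0.37 for all genes. The S group against the O group gave 10 higher and 8 lower, beside 24.3% and 2.36%, with medians of 0.08 and 0.36. Cox6b2 was still higher in the O group than in the C group, at 3.39. In platelets the directions held, with 20 members lower in the S group than in the O group and none higher, beside 2.09% and 5.75% of all genes, and 11 higher in the O group than in the C group and none lower, beside 2.68% and 0.399%. DESeq2 gave, once O group pools 1 and 4 were left out, no member past adjustment in these 4 comparisons, a result given without the share of all genes.

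**Figure D3:**
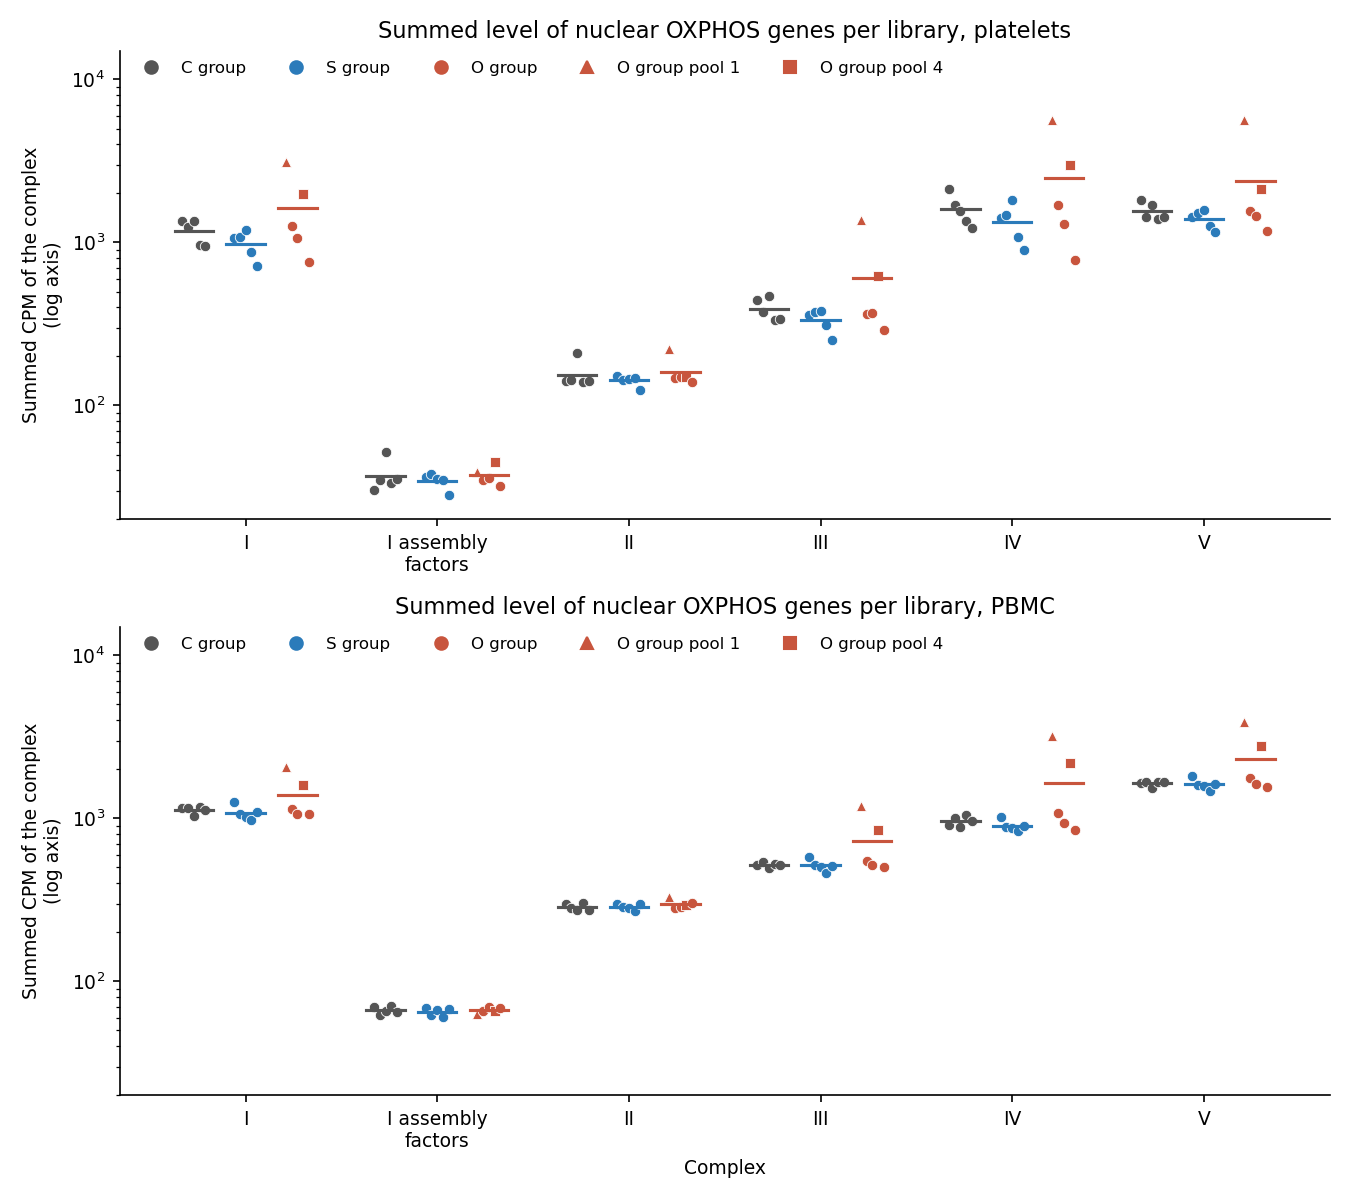
Summed CPM of the members of each complex is plotted for each library on a log axis, by group and tissue, with bars at the group means, a triangle for O group pool 1 and a square for pool 4. In complexes I, III, IV and V both pools lie above the other 3 O group pools, while complex II runs from 124 to 220.5 CPM over all platelet libraries.

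Pools 1 and 4 of the O group were high in most complexes, and platelet pool 5 was low. The complex IV members summed to 5674 CPM in platelet pool 1 and 2988 CPM in platelet pool 4 of the O group, against 1234 to 2132 CPM in the C group. Platelet pools 2 and 3 held 1703 and 1300 CPM, within that range, and pool 5 held 783 CPM, below every C group and S group library. In PBMC the same sum was 3198 and 2176 CPM in pools 1 and 4, against 886 to 1053 CPM in the C group. Pools 1 and 4 lay above every C group library in both tissues, and in PBMC pool 2 (1079 CPM) lay just above and pool 5 (843 CPM) just below the C group range. Complex V reached 5617 and 2132 CPM in platelet pools 1 and 4, with the C group at 1394 to 1825 CPM. In platelet pool 5 only 9 of 79 members with a C group mean of at least 5 CPM exceeded that mean, and their median ratio to it was 0.82 over all members and 0.48 in complex IV.

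Complex II was less high in pool 1 than the other complexes. The 4 succinate dehydrogenase genes summed to 220.5 CPM in platelet pool 1, above the 139 to 208 CPM of the C group, and to 149 CPM in platelet pool 4, within it. In PBMC they summed to 329 CPM in pool 1, above the C group at 273 to 303 CPM, and to 296 CPM in pool 4, within it. The median ratio of its genes to the C group mean was 1.33 in platelet pool 1, against 2.30 for complex I, 3.46 for complex III, 4.45 for complex IV and 2.91 for complex V. In platelet pool 4 it was 0.97, against 1.39, 1.23, 1.80 and 1.44. Ndufaf1 to Ndufaf8 summed to 39.2 and 45.2 CPM in the platelet pools, inside the C group range of 30.1 to 51.5 CPM. The 3 assembly factors with a C group mean of at least 5 CPM had a median ratio of 1.33 in platelet pool 1 and 1.48 in platelet pool 4, the second above that of complexes I, III and V.

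Counted gene by gene among members with a C group mean of at least 5 CPM, 48 of 79 members (60.8%) exceeded 2 times the C group mean in O group platelet pool 1, beside 12.7% of all genes. In platelet pool 4 it was 14 of 79 (17.7%, beside 2.77%), and in pools 2, 3 and 5 it was 0. In PBMC pool 1 it was 38 of 83 (45.8%, beside 8.83%), in pool 4 it was 28 of 83 (33.7%, beside 4.69%), in pool 2 it was 1 and in pools 3 and 5 it was 0. These ratios describe single libraries and carry no test.

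Cox6b2 had the highest ratio to its C group mean of these members in pool 1 of both tissues. In PBMC it stood at 4.61, 4.20, 4.29, 7.01 and 5.91 CPM in the C group, at 6.02, 4.83, 5.31, 4.14 and 5.74 CPM in the S group, and at 283, 18.2, 7.95, 152 and 5.07 CPM in the O group. Pools 1 and 4 stood far above the rest, pools 2 and 3 above every C group and S group pool, and pool 5 within their range. Its log2 fold change in PBMC was 4.14 ± 1.06 for the O group against the C group (unadjusted P = 0.00262, edgeR's quasi-likelihood test) and -4.14 ± 1.05 for the S group against the O group. In platelets it stood at 84.5, 55.5, 45.1, 32.4 and 29.0 CPM in the C group and at 637, 59.8, 49.7, 183 and 19.0 CPM in the O group. There only pools 1 and 4 lay above the C group range.

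Atp5b, the catalytic beta subunit of ATP synthase, stood at 377, 369, 377, 360 and 378 CPM in C group PBMC and at 1678, 441, 393, 959 and 370 CPM in O group PBMC, and the log2 fold change was 1.04 ± 0.39, or 0.11 ± 0.07 without pools 1 and 4. In platelets it stood at 472, 275, 333, 358 and 379 CPM in the C group and at 2623, 305, 371, 478 and 287 CPM in the O group. Pools 1 and 4 were the highest in both tissues, although platelet pool 4 only just cleared the C group. Cox7b reached 344 and 82.0 CPM in platelet pools 1 and 4 of the O group and 225 and 145 CPM in the PBMC pools, above C group maxima of 71.1 and 42.8 CPM.

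Members of complexes I, III, IV and V passed in these comparisons. In complex III, Uqcrq, a small subunit that binds ubiquinone, had a log2 fold change of -1.60 ± 0.52 in the S group against the O group in platelets and -0.87 ± 0.34 in PBMC, and Uqcrb had -1.37 ± 0.48 and -0.69 ± 0.30. In complex I, Ndufv3 had -1.24 ± 0.41 in platelets, and Ndufc2, whose O group platelet pools ran from 6.69 to 11.3 CPM, had -0.63 ± 0.19. In complex IV, Cox6a1 had -1.49 ± 0.51 in PBMC, Cox7a2 -1.48 ± 0.57 in platelets and -1.38 ± 0.53 in PBMC, and Cox4i1 -1.18 ± 0.47 and -0.65 ± 0.28. In complex V, Atp5k had -1.41 ± 0.45 in PBMC, and Atp5mpl had -1.52 ± 0.55 in platelets and -0.94 ± 0.32 in PBMC. The 4 succinate dehydrogenase genes and Cyc1 lay between -0.31 and 0.07 in platelets and between -0.14 and 0.02 in PBMC, and none passed.

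Without O group pools 1 and 4 the values of these genes in complexes I, III, IV and V for the S group against the O group were smaller in size. In platelets Ndufc2 (-0.51) still passed, while Uqcrq (-0.23), Uqcrb (-0.30), Ndufv3 (-0.25), Cox7a2 (-0.12), Cox4i1 (-0.06) and Atp5mpl (-0.11) did not. In PBMC Uqcrq (-0.08), Uqcrb (-0.06), Cox6a1 (-0.16), Cox7a2 (0.04), Cox4i1 (-0.07), Atp5k (-0.29) and Atp5mpl (-0.23) did not pass. The succinate dehydrogenase genes and Cyc1 lay between -0.21 and 0.26 in platelets and between -0.05 and 0.04 in PBMC.

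**Figure D4:**
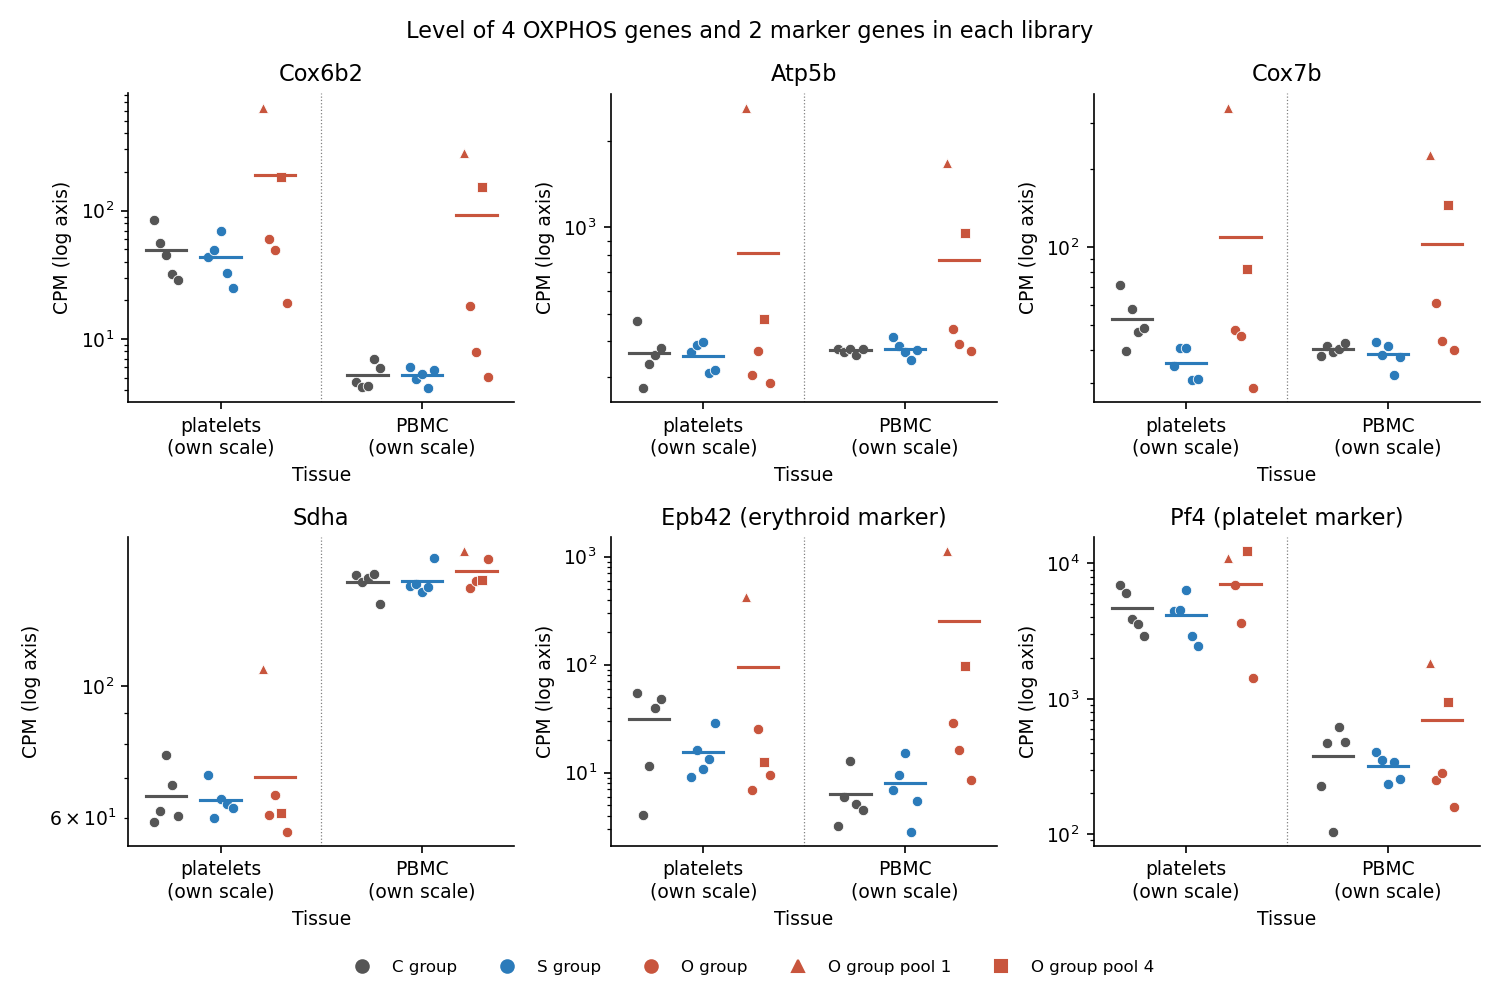
CPM of Cox6b2, Atp5b, Cox7b, Sdha, the red cell membrane gene Epb42 and the platelet gene Pf4 is plotted for each library on a log axis, with each tissue on its own scale so that levels cannot be compared between tissues. O group pools 1 and 4 stand above the other PBMC pools in Cox6b2, Atp5b and Cox7b and also in Epb42, and Sdha shows no such separation.

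Markers of other cells also differed in some of these pools. The erythroid markers other than hemoglobin summed to 74783 and 24723 CPM in PBMC pools 1 and 4 of the O group, against 1388 to 5823 CPM in the C group. Epb42, which encodes a red cell membrane protein, stood at 1121 and 96.5 CPM there, against 3.22 to 12.9 CPM. The neutrophil list summed to 6696 and 5653 CPM in these PBMC pools, against 372 to 2113 CPM, and the platelet list to 12253 and 7312 CPM, against 897 to 5201 CPM. In platelets, pool 1 held 64184 CPM of the erythroid list and 3643 CPM of the neutrophil list, against C group ranges of 2898 to 27226 CPM and 148 to 744 CPM. Platelet pool 4, however, held 3487 CPM and 323 CPM of these lists, within the C group ranges, with complex IV at 2988 CPM. Its platelet list summed to 53546 CPM and that of pool 1 to 42077 CPM, against 17483 to 47775 CPM in the C group. The B cell list was lower, at 381 and 460 CPM in platelet pools 1 and 4 against 635 to 745 CPM, although platelet pool 2 also held 475 CPM. In PBMC it stood at 2081 and 2496 CPM, against 2413 to 3291 CPM. The NK cell list held 43.5 and 65.5 CPM in platelet pools 1 and 4, against 67.2 to 118 CPM, and 263 and 436 CPM in the PBMC pools, against 374 to 563 CPM. The monocyte list held 1172.5 and 1716 CPM in these platelet pools, against 1455 to 3307.5 CPM, and 6912 and 5374 CPM in the PBMC pools, against 4781.5 to 6404 CPM. The T cell list held 529 and 537 CPM in these platelet pools, against 354 to 493 CPM, and 1147 and 1366 CPM in the PBMC pools, against 1380 to 1805 CPM. Genes of mitochondrial DNA took 5.39% of all counts in platelet pool 1, against 9.46% to 17.8% in the C group, and 13.2% in platelet pool 4. On the CPM scale the subunits encoded there summed to 28306 and 20892 CPM, against 12695 to 19578 CPM. Across PBMC, 12 of 12 erythroid markers were higher in the O group than in the C group, with a median log2 fold change of 3.21, and the part of these cells in the members' values was not tested.

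Without O group pools 1 and 4 the counts of the members shrank (edgeR's quasi-likelihood test, unadjusted P under 0.05). In platelets the S group against the O group gave 2 of 90 members higher and 1 lower, beside 6.71% and 4.82% of all genes, with a median log2 fold change of -0.11. The O group against the C group in platelets gave 0 of 88 higher and 3 lower, beside 1.8% and 1.33% of all genes, with a median of -0.10. The 3 were Atp5mpl (-0.44), Atp5k (-0.56) and Ndufaf6 (-1.27), and the first 2 were also lower in the S group than in the same C group libraries. Ndufaf6 had at most 41 counts in a platelet library.

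In PBMC the S group against the O group without these pools gave 0 of 88 higher and 3 lower (Cox6b2 -0.98, Cox7b -0.31 and Ndufaf7 -0.30), beside 3.95% and 4.46% of all genes, with a median of -0.01. The O group against the C group gave 2 of 89 higher (Cox6b2 0.98 and Atp5l 0.23) and 1 lower (Ndufa13 -0.23), beside 5.19% and 3.89% of all genes, with a median of -0.02. Cox6b2 passed in both PBMC comparisons, which share the O group libraries. Its values in O group PBMC pools 2 and 3 lay above every C group and S group pool, and that in pool 5 lay among them. The erythroid markers were 12 of 12 higher in O group PBMC than in the C group here too, at a median of 1.55.

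**Figure D5:**
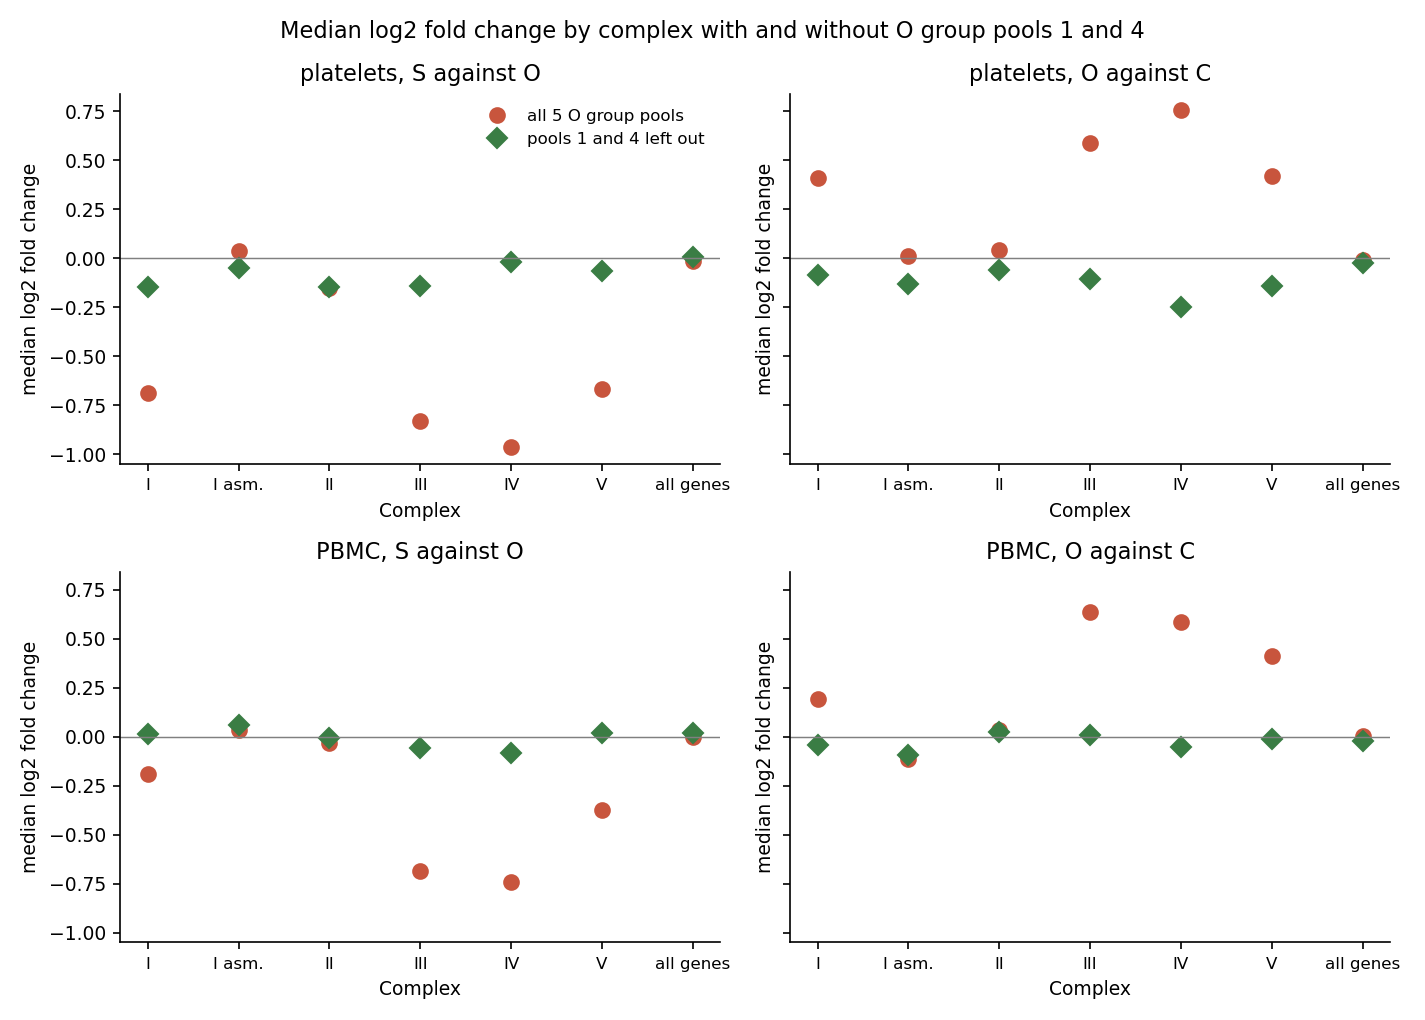
Median log2 fold change of the members is plotted by complex for the 4 comparisons with the O group, with all 5 O group pools and without pools 1 and 4. Without these pools the medians of complexes I, III, IV and V become smaller in size, from -0.96 to -0.02 for complex IV in the S group against the O group in platelets.

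Single libraries set the size of these counts. For the S group against the O group in platelets, 36 became 10 without O group pool 1, 14 without S group pool 4 and 13 without S group pool 5. For the O group against the C group in platelets, 5 became 0 without O group pool 1, C group pool 4 or C group pool 5, 1 without O group pool 4, 3 without C group pool 2, 8 without O group pool 2, 11 without O group pool 3 and 27 without O group pool 5. In PBMC the S group against the O group went from 30 to 11 without O group pool 1 or pool 4, 18 without S group pool 2, 15 without S group pool 4 and 19 without S group pool 5. The O group against the C group in PBMC went from 22 to 6 without O group pool 1, O group pool 4 or C group pool 3, to 12, 9 and 7 without C group pools 1, 2 and 5, and to 34, 38 and 39 without O group pools 2, 3 and 5. Of all genes, the 10 fits without 1 library called, in either direction, 9.6% to 16% and 3.47% to 7.93% in platelets and 9.05% to 18% and 8% to 17.6% in PBMC, in the same order of comparisons.

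Whether the group differences themselves differed between platelets and PBMC was tested as an interaction over all 30 libraries, which the fit treated as independent although the tissues share mice. Each count is therefore also given with the pool, by group and number, as a block, a fit that takes same-numbered pools to hold the same mice. For the S group against the C group 1 of 89 members passed at an unadjusted P under 0.05 (edgeR's quasi-likelihood test), and it had a more negative difference in platelets, beside 2.05% of 16498 genes called that way and 3.33% the other way. It was Atp5s, a factor related to ATP synthase, with an interaction of -0.75 ± 0.32 on the log2 scale, and with library totals its value of -0.42 did not pass. With the pool as a block 4 passed, all more negative in platelets: Atp5s (-0.78), Cox7b (-0.53), Cox7a2 (-0.51) and Atp5l (-0.47). Of all genes 1.79% were called that way in this fit and 2.56% the other way. The count was 3 without platelet C group pool 4, 2 without platelet S group pool 2 or PBMC C group pool 4, and 0 without platelet S group pool 3, PBMC C group pool 2 or PBMC S group pool 1. The lower values of Atp5mpl, Atp5k and Cox7c in the S group were not shown to differ in size between the tissues in either fit.

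For the S group against the O group 14 members passed, 13 with a more negative difference in platelets and 1, Cox7a1 (1.33 ± 0.57), with a more positive one, beside 7.75% and 5.86% of all genes. The 13 were led by the complex I subunits Ndufv2 (-0.67 ± 0.19), Ndufv3 (-1.24 ± 0.40) and Ndufb5 (-0.70 ± 0.23). With the pool as a block 15 were more negative and 1, Cox6b2 (1.33), more positive, beside 7.31% and 5.75% of all genes, and these 3 stood at -0.65, -0.97 and -0.70. With O group pools 1 and 4 of both tissues left out, Ndufv2 (-0.44), Ndufs1 (-0.38), Ndufc2 (-0.65) and Cox7a1 (2.20) still passed. Ndufv3 (-0.35, unadjusted P = 0.166) and Ndufb5 (-0.35, unadjusted P = 0.147) did not (edgeR's quasi-likelihood test). Cox7a1 had few reads, at most 14 counts in a platelet library and 21 in a PBMC library. Over the fits without 1 library, Ndufv2 shrank to as little as -0.30 and passed in 29 of 30. Cox7a1 shrank to as little as 1.10 and passed in 26. Ndufv2, an iron-sulfur subunit of the NADH-oxidizing arm, stood at 20.8, 19.97, 21.7, 19.98 and 16.0 CPM in S group platelets and at 46.8, 23.0, 26.8, 29.0 and 22.1 CPM in O group platelets. In PBMC it ran from 29.9 to 36.1 CPM in the S group and from 29.0 to 39.3 CPM in the O group, which overlapped. Ndufv3, also of that arm, stood at 93.9, 26.1, 24.5, 73.2 and 17.0 CPM in O group platelets and ran from 14.8 to 23.0 CPM in S group platelets. Its PBMC values ran from 25.6 to 36.2 CPM in the O group and from 25.7 to 33.3 CPM in the S group. With the hemoglobin genes removed before scaling, which moved the median of all genes from -0.08 to 0.11, the counts were 1 more positive and 3 more negative, beside 9.77% and 2.29% of all genes. The total of 14 was 5 without platelet C group pool 1, 4 without platelet S group pool 3, 6 without platelet O group pool 5 and 4 without O group pools 1 and 4 of both tissues, beside 12.4% of all genes. Without platelet O group pool 1 it was 8, of which 7 were more positive and 1 more negative, beside 13.8% and 3.48% of all genes.

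For the O group against the C group only Ndufv3 (1.13 ± 0.40) and Ndufab1 (0.60 ± 0.21), the acyl carrier protein of complex I, passed, both more positive in platelets, beside 3.89% of all genes called that way and 2.71% the other way. Ndufv3 stood at 0.24 without O group pools 1 and 4 (unadjusted P = 0.331, edgeR's quasi-likelihood test) and no longer passed, while Ndufab1 stood at 0.54 and passed, beside 3 members that were more negative in platelets, Cox7a1 (-2.01), Cox7b (-0.55) and Ndufaf6 (-1.10). Cox7a1 and Ndufaf6 had few reads, at most 14 and 41 counts in a platelet library. Of all genes 3.27% were called more positive and 3.3% more negative without these pools. With the pool as a block Ndufv3 and Ndufab1 passed (0.86 and 0.63), and Cox6a1 (-0.48) and Cox6b2 (-1.55) were more negative, beside 3.55% of all genes called more positive and 3.18% more negative. Scaled by library totals 14 members were more positive and 1, Cox6b2 (-1.80), more negative, beside 10.1% and 1.72% of all genes, and the median was 0.47 for the members and for all genes. No member passed any interaction after adjustment, where the smallest adjusted P was 0.198 (edgeR's quasi-likelihood test with Benjamini-Hochberg adjustment). The count of 2 was 11 without platelet C group pool 3, 4 without platelet S group pool 3, 6 without platelet O group pool 3 and 4 without PBMC O group pool 5. Without platelet O group pool 1 it was 11, all more negative in platelets, beside 7.02% of all genes called that way and 2.57% the other way. Over the 30 fits of each interaction that left out 1 library, 4.29% to 9.83% of all genes were called in either direction for the S group against the C group, 10.5% to 17.3% for the S group against the O group and 5.4% to 9.6% for the O group against the C group.

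Genes that work with these complexes were tested beside them. In S group platelets 2 of 12 subunits encoded in mitochondrial DNA were lower than in the C group, mt-Nd3 (-0.64) and mt-Co2 (-1.18), beside 2.13% of all genes called lower, and none in PBMC. In the comparisons with the O group none of these subunits passed in either tissue. For the S group against the O group, 6.67% of all genes were called lower and 7.23% higher in platelets, and 7.8% and 4.43% in PBMC. For the O group against the C group, 2.61% were called higher and 2.17% lower in platelets, and 7.56% and 4.39% in PBMC. At such shares a list this short may hold none, so it is not set against the nuclear members. Without O group pools 1 and 4, mt-Co2 (-0.25) was lower in O group PBMC than in the C group, 1 of 12 beside 3.89% of all genes. Cycs, the mobile carrier cytochrome c, was lower in the S group than in the O group in platelets (-0.85) and PBMC (-0.44), and without O group pools 1 and 4 its values of -0.21 and -0.09 did not pass. Of 16 genes of the TCA cycle, the S group against the O group gave 2 lower in platelets, Dld (-0.43) and Mdh2 (-0.73), beside 6.67% of all genes, and none in PBMC. Without these pools Dld (-0.41) and Mdh2 (-0.11) did not pass, and 1 other gene of the list, Idh3a, was lower in platelets and 2, Dlst and Dlat, in PBMC, beside 4.82% and 4.46% of all genes. Of 17 glycolysis genes, S group platelets had Gapdh, a gene with many processed copies in the genome, higher (3.10) and Aldoc lower (-0.96) than the C group, beside 4.29% and 2.13% of all genes, and PBMC had none. Among 38 assembly factors outside the symbol rule, Pet100 (-0.46) and Cox15 (-0.22), both of complex IV assembly, were lower in S group PBMC than in the C group, beside 1.41% of all genes, and none passed in platelets. Ucp2, an uncoupling protein family member, was higher in O group PBMC than in the C group (1.46), 1 of 4 carriers beside 7.56% of all genes. Tfam, the mitochondrial transcription and packaging factor, was lower (-0.26), 1 of 10 regulators beside 4.39%. Without pools 1 and 4 both still passed, at 0.52 and -0.27.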

How the data were processed

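The deposited files held raw counts per gene, made by the authors from mRNA sequencing reads and not normalized. The submitters' processing notes name HISAT2 2.0.5, featureCounts 1.5.0-p3 and DESeq2 1.16.1. They name build mm9, but 54495 of the 54532 gene identifiers are in GENCODE M21 (GRCm38), which gave the symbols, gene types and exon lengths. Whether counting used strand is not given in the sources used here. Some members overlap or resemble other genes: Ndufaf2 shares 65.6% of its exon bases with another gene, Atp5o 47.9%, Ndufb6 39.0% and Ndufa13 30.0%, and Atp5g2 shares 35.8% of its 75-base windows with another gene. Platelet samples, whose cell type tag reads PBMC, were grouped by title and source name. No column was left unmapped (0).

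Each comparison was fitted in R 4.3.3 with edgeR 4.0.16 (filterByExpr, TMM, quasi-likelihood F test) on all genes, 5 pools per group, with tissue and interaction fits on all 30 libraries. CPM in the text is TMM-normalized, within a tissue for group comparisons and over both tissues for tissue comparisons. An unadjusted P under 0.05 was the call, read from the study's P values under 0.05, which it does not state to be unadjusted. The Benjamini-Hochberg value was taken over all genes tested. Log2 fold changes carry their SE. No 2 libraries agreed within sampling noise. The fitting code was tested on simulated data. Counts limit precision only for counting error. Alternatives were DESeq2 1.42.0, RLE scaling, a minimum total count of 1, removal of the hemoglobin genes, all 3 groups in 1 fit, the replicate number as a block, C group libraries alone for the tissues, and each library left out in turn. Leaving out O group pools 1 and 4, with edgeR and with DESeq2, and scaling by library totals without TMM factors were added after seeing the data.

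Genes named were members past the threshold in order of P (at most 25 a comparison, or the 5 smallest P), members whose tissues did not overlap, the highest member of each complex, the paralog pairs, the succinate dehydrogenase genes and Cyc1, and up to 3 examples of other lists. Members and lists were chosen with earlier results of these data known. In PBMC, S and C group pools of the same number deviated together (r from 0.35 to 0.61 over 10506 genes, all 5 pairs above 0.1), so the numbers were taken to pair them, although the labels do not say what a number marks. Promoter windows came from RefSeq, and the motif letters of NRF1 and YY1 were each shortened by 1 base after matches of the longer forms had been seen.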

Additional observations from a re-analysis of the deposited data

Results flagged for a closer look

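In groups of 5 pools, 138 groups of member values and complex sums were tested for 1 pool set apart from the others, by the share of the group's range that separates it from its nearest neighbour (above 0.71). For independent groups picked without the data, chance would flag about 1 in 20, or 6.9 of 138, and 17 were found. Here the sums hold genes that were also tested singly, and several genes were named for their P in these libraries. The 17 therefore cannot be read against 6.9. Platelet pool 1 of the O group stood high in 9 of the 17 flagged groups. Its values were 220.5 CPM for complex II summed, 5617 CPM for complex V summed, 107 CPM for Sdha, 637 CPM for Cox6b2 and 746 CPM for Cox6c. It also stood high at 344 CPM for Cox7b, 2623 CPM for Atp5b, 139 CPM for Atp5k and 171 CPM for Atp5mpl. In C group platelets, pool 3 stood high in the summed assembly factors of complex I (51.5 CPM) and in complex II summed (208 CPM). In S group platelets, pool 5 stood low in complex II summed, at 124 CPM.

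In C group PBMC, pool 3 stood low in complex V summed (1542 CPM) and in Cox7c (53.0 CPM), and pool 5 stood low in Sdha (138 CPM). In S group PBMC, pool 1 stood high in Ndufa3 (44.1 CPM) and pool 5 stood high in Sdha (165 CPM).

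Ndufb1-ps, a transcript that matches the symbol rule but is annotated as non-coding and was left out of the members, was read in both tissues. Its C group mean was 22.1 CPM in platelets and 25.4 CPM in PBMC. In PBMC it ran from 16.7 to 18.3 CPM in the S group, from 22.3 to 28.9 CPM in the C group and from 17.9 to 30.3 CPM in the O group. In platelets the ranges overlapped, with 19.2 to 27.5 CPM in the C group, 12.1 to 24.4 CPM in the S group and 14.7 to 30.0 CPM in the O group. No test or share of all genes is given for these ranges.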

How the results depend on the processing

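Counts of members past the unadjusted threshold moved by over 1.5 times as follows. They are printed here without shares of all genes, so they describe the members alone and are not set against other genes. With the replicate number as a block, they were 12 for the S group against the C group, 15 for the S group against the O group and 0 for the O group against the C group in platelets, 13 for the O group against the C group in PBMC, and 4 for the interaction of the S group with the C group and of the O group with the C group. All 3 groups in 1 fit gave 1 and 13 in platelets (S group and O group, each against the C group) and 0 and 35 in PBMC. DESeq2 gave 8 and a minimum total count of 1 gave 13 for the O group against the C group in platelets, and the latter gave 0 and 6 for the interactions of the S group with the C group and the O group. RLE scaling gave 6 for that last interaction, and removing the hemoglobin genes gave 4 for it and 4 for the interaction of the O group with the C group. Leaving out O group pools 1 and 4 gave 3 in each of the 4 comparisons with the O group, and 3, 4 and 4 in the interactions. With DESeq2 on the same libraries the 4 comparisons gave 4 and 3 in platelets and 4 and 3 in PBMC (S group against O group, O group against C group). Scaling by library totals gave 0, 20 and 11 in platelets (S against C, S against O, O against C), 18 for the S group against the O group in PBMC (10 higher and 8 lower), and 0 and 15 (14 higher and 1 lower) for the interactions of the S group and the O group with the C group. Leaving out 1 library at a time gave 3 to 15, 10 to 52 and 0 to 27 in platelets (S against C, S against O, O against C), 3 to 17, 11 to 44 and 6 to 39 in PBMC, 79 to 82 between tissues, and 0 to 3, 4 to 21 and 2 to 11 for the interactions.

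Signs reversed for the member median of the O group against the C group without pools 1 and 4 (-0.10 in platelets, -0.0240 in PBMC, -0.12 and -0.0124 with DESeq2, and -0.0480 for the interaction, which was -0.0134 without hemoglobin genes). Without 1 library, the median was -0.11 to 0.00116 for the S group against the C group in PBMC, -0.52 to 0.15 for the interaction of the S group with the O group and -0.29 to 0.30 for that of the O group with the C group. With library totals the member median reversed in PBMC to 0.0780 for the S group against the O group and -0.18 for the O group against the C group, to -0.32 for platelets against PBMC (Cox7a2l to -0.0647), and to 0.0160 for the interaction of the S group with the C group. Without pools 1 and 4, single genes reversed in the O group against the C group: Cox6b2 (-0.18) and Uqcrq (-0.19) in platelets, and Uqcr11 (-0.00322), Cox6c (-0.0434), Ndufb6 (-0.0210) and Ndufa5 (-0.0452) in PBMC, and Cox7a2 (0.0437) in the S group against the O group in PBMC. DESeq2 without these pools reversed Cox6b2 (-0.19) and Uqcrq (-0.21) in platelets and Cox6c (-0.0316), Ndufb6 (-0.0124) and Ndufa5 (-0.0356) in PBMC, and, for the S group against the O group, Cox6b2 (0.00430) in platelets and Cox7a2 (0.0327) in PBMC. The cause was not tested. Of 977 values for named genes under the other settings, 667 kept direction and call.

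Same-numbered pools of S and C group PBMC deviated together, each of the 10 correlating best with its own number, and the block changed no call of a named gene there, where 2 other members were higher. For other group pairs the number did not pair every pool. The pools closest to their own number were 8 of 10 for S and O group PBMC (r from 0.08 to 0.42), 7 for O and C group platelets (-0.14 to 0.57) and 2 for O and C group PBMC, and 0 for the S group with either other group in platelets. Between the tissues they were 6 of 10 in the O group (0.079 to 0.67) and 2 each in the C and S groups. Between injection groups of 5 pools with these spreads, no member passed adjustment by edgeR, and members with low counts such as Ndufa4l2 could not be compared at this depth.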
